A study of Homo sapiens with 6 samples.

Results

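The centromere, kinetochore and spindle checkpoint genes described here are 38 genes whose products mark the centromere, build the kinetochore on it and delay anaphase until every chromosome is attached to the spindle. They were taken by symbol from a list of these complexes, and the list was chosen with earlier results of these data known. Shares of members set beside those of all genes therefore describe this list and do not test it. Values come from the probe sets that the platform annotation assigns to a single member. These are 77 of the 41091 probe sets that name 1 gene. All 38 had such a probe set, out of 19775 genes named on the array. For 37 of them at least 1 probe set had a mean of log2 4 or more over the 6 arrays and was tested among 11131 genes. INCENP, the scaffold of the chromosomal passenger complex, stayed below that level.

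Total RNA was measured on 6 HG-U133 Plus 2.0 arrays, 2 for each of 3 groups, from PC3, a human line derived from a prostate cancer metastasis. The cells had received an siRNA pool against VEGF-C, a growth factor of lymphatic vessels, an siRNA pool against NRP-2, its co-receptor neuropilin-2, or scrambled siRNA. All groups shared the line, the serum medium and the DharmaFECT reagents, and RNA was collected after 72 h. The labels name Dharmacon as the source of the VEGF-C pool and Santa Cruz Biotechnology as that of the NRP-2 pool, and 1 pool per target was used in 1 cell line. The arrays of a group are numbered 1 and 2, and the labels do not say what a number stands for or that each array had a culture of its own, so each p-value covers the spread between arrays alone, and that spread may be technical.

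The centromere is marked by nucleosomes that contain the histone H3 variant CENP-A. A constitutive complex of CENP proteins sits on them through the cell cycle, and in mitosis it carries the outer kinetochore, which grips spindle microtubules. Kinetochores that are not attached recruit the BUB and MAD proteins, which inhibit the anaphase-promoting complex, while the chromosomal passenger complex releases faulty attachments. Many of these genes are transcribed mainly in G2 and mitosis. In resting and G1 cells the DREAM complex represses such promoters through the cell cycle genes homology region (CHR), and later MYBL2 and FOXM1 bind with the same core complex and activate them. NF-Y binds the CCAAT boxes common in the same promoters.

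The promoters of 4 members are shown because each window holds both kinds of letters and these 4 had the largest mean difference between the arrays numbered 1 and 2 among the members with both. The sequences are RefSeq's for build GRCh38.p14, written 5′ to 3′ along the gene, from 250 bases before the start of the gene to 50 bases after it, so that each lies upstream of the gene and over its first bases. Capitals mark the CHR-type letters TTTGAA or TTTAAA and the CCAAT box, each on either strand, where CCAAT read on the other strand is ATTGG and TTTGAA is TTCAAA.
SPC25 (chr2:168890381-168890680, minus strand): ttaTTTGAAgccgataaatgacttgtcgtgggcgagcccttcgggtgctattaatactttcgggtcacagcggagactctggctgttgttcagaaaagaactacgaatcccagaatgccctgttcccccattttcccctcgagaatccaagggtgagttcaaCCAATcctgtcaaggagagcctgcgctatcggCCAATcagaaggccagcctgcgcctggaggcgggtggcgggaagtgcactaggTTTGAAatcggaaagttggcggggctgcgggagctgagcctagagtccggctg
CDCA8 (chr1:37692266-37692565, plus strand): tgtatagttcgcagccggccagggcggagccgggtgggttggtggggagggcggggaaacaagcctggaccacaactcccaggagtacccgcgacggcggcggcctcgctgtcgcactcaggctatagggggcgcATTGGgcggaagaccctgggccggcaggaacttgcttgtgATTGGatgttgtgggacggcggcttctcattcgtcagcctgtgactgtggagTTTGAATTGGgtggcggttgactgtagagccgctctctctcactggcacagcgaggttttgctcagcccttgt
HJURP (chr2:233854486-233854785, minus strand): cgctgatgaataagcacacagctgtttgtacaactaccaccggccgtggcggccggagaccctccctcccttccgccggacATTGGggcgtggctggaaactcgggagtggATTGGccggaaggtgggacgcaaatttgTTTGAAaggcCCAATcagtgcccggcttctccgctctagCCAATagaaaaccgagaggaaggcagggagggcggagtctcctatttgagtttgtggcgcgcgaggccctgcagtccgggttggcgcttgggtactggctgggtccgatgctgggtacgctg
CENPA (chr2:26785806-26786105, plus strand): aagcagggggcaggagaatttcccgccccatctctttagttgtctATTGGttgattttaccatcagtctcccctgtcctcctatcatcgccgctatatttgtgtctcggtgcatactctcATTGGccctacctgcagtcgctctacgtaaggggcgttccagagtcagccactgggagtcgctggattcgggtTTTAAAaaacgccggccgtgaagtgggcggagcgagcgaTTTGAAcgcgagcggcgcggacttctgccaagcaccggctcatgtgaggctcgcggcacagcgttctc
SPC25 had TTTGAA at the far end of its window and again starting 3 bases before the gene start, CDCA8 23 bases before it, HJURP 111 bases before it and CENPA 18 bases before it, with a TTTAAA 57 bases before the start as well. In CDCA8 these letters share 1 base with an ATTGG.

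Windows were available for 30 of the 38 members, 32 windows in all. CHR-type letters stood in 20 of the 32 windows (62.5%), against 17.6% of the 13513 windows of genes tested and 24% of all 35116 windows of the same 300 bases. CCAAT boxes stood in 21 (65.6%), against 35.1% and 34.6%, and both in 12 (37.5%), against 6.93% and 9.27%. The windows of CENPI, DSN1 and NSL1 held neither. The mean difference between arrays 1 and 2 had a median of 1.14 (log2) over the 17 tested members with CHR-type letters and 0.79 over the 12 without, with ranges that overlap (0.39 to 1.57 with, 0.35 to 2.08 without). For the CCAAT box the medians were 1.06 with (n = 18) and 1.12 without (n = 11). These letter counts describe the windows and were not tested.

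The targeted transcripts followed the labels. VEGFC stood at log2 8.46 and 7.27 on the VEGF-C siRNA arrays and 11.99 and 11.67 on the NRP-2 siRNA arrays, against 11.81 and 11.80 on the scrambled arrays. NRP2 stood at 3.41 and 2.81 with NRP-2 siRNA and 5.51 and 6.01 with VEGF-C siRNA, against 4.77 and 4.92 with scrambled siRNA, close to the floor of the scale. Neither target passed limma's adjusted p under 0.05. VEGFC differed by -3.945 with VEGF-C siRNA (limma's adjusted p at least 0.204) and NRP2 by -1.738 with NRP-2 siRNA (limma's adjusted p = 0.213). The absence of a call below therefore does not show that a gene was unchanged. The 5 epithelial markers (KRT8, KRT18, KRT19, EPCAM and CDH1) all passed log2 4, with summed levels of 68.31 to 69.71 with VEGF-C siRNA, 67.79 to 68.62 with NRP-2 siRNA and 68.77 to 69.68 with scrambled siRNA. None of the 3 leukocyte markers with a probe set passed it, and the fibroblast genes DCN and LUM and the endothelial genes VWF, CDH5 and TEK lay near the floor. The other genes of these lists, COL1A1, COL3A1, ACTA2, KDR and PECAM1, had means above log2 4. COL1A1, a collagen gene, stood at 9.97 and 10.13 with VEGF-C siRNA and 9.56 and 10.26 with NRP-2 siRNA, against 10.73 and 10.77 with scrambled siRNA, lower on all 4 arrays of the targeting siRNAs (-0.70 and -0.84, SE 0.24 each, limma's adjusted p = 0.306 and 0.289). COL3A1 stood at 7.04 and 8.27 with VEGF-C siRNA and 7.94 and 8.75 with NRP-2 siRNA, against 7.73 and 8.25 with scrambled siRNA, lower on array 1 of each group. PECAM1, an endothelial adhesion gene, stood at 9.17 and 9.35 with VEGF-C siRNA and 9.29 and 10.93 with NRP-2 siRNA, against 9.39 and 10.84 with scrambled siRNA, so that it too was lower on array 1 of each group. The part of these 3 genes in the results below was not tested. Of 5 luminal prostate genes 3 had a probe set, with KLK2 near the floor. TMPRSS2 stood at 8.66 and 8.67 with VEGF-C siRNA and 7.02 and 8.28 with NRP-2 siRNA, against 9.18 and 9.25 with scrambled siRNA. It differed by -0.55 and -1.57 (SE 0.40 each, limma's adjusted p = 0.545 and 0.249). KLK3 had 6.87 and 6.70 with VEGF-C siRNA and 6.26 and 6.29 with NRP-2 siRNA, against 6.29 and 6.32 with scrambled siRNA. Their part was not tested. The 3′ minus 5′ signal of ACTB, a measure of RNA integrity, was 2.11 and 2.28 with VEGF-C siRNA and 2.18 and 2.76 with NRP-2 siRNA, against 3.11 and 2.05 with scrambled siRNA, highest on scrambled array 1 and next on NRP-2 array 2, while that of GAPDH lay between -0.09 and -0.001. Its part in the results was not tested either.

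Nearly all of the 37 tested members lay higher with either targeting siRNA than with scrambled siRNA. Nearly all of them also lay higher on array 1 than on array 2 of every group. Each gene's 6 values were set relative to its own mean, and the median of the 37 members was then +0.77 and +0.06 on the VEGF-C arrays and +0.81 and -0.27 on the NRP-2 arrays, against -0.04 and -1.36 on the scrambled arrays. Scrambled array 2 was the lowest of the 6 for 35 of the 37 (94.6%), where 16.9% of all genes tested had their lowest value on it. Array 1 of a targeting siRNA was the highest for 36 (42.4% of all genes), NRP-2 array 1 for 25 (26.4%) and VEGF-C array 1 for 11 (16%). In RNA from whole cultures a smaller share of cells in mitosis and less of these transcripts per cell cannot be told apart.

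**Figure D1:**
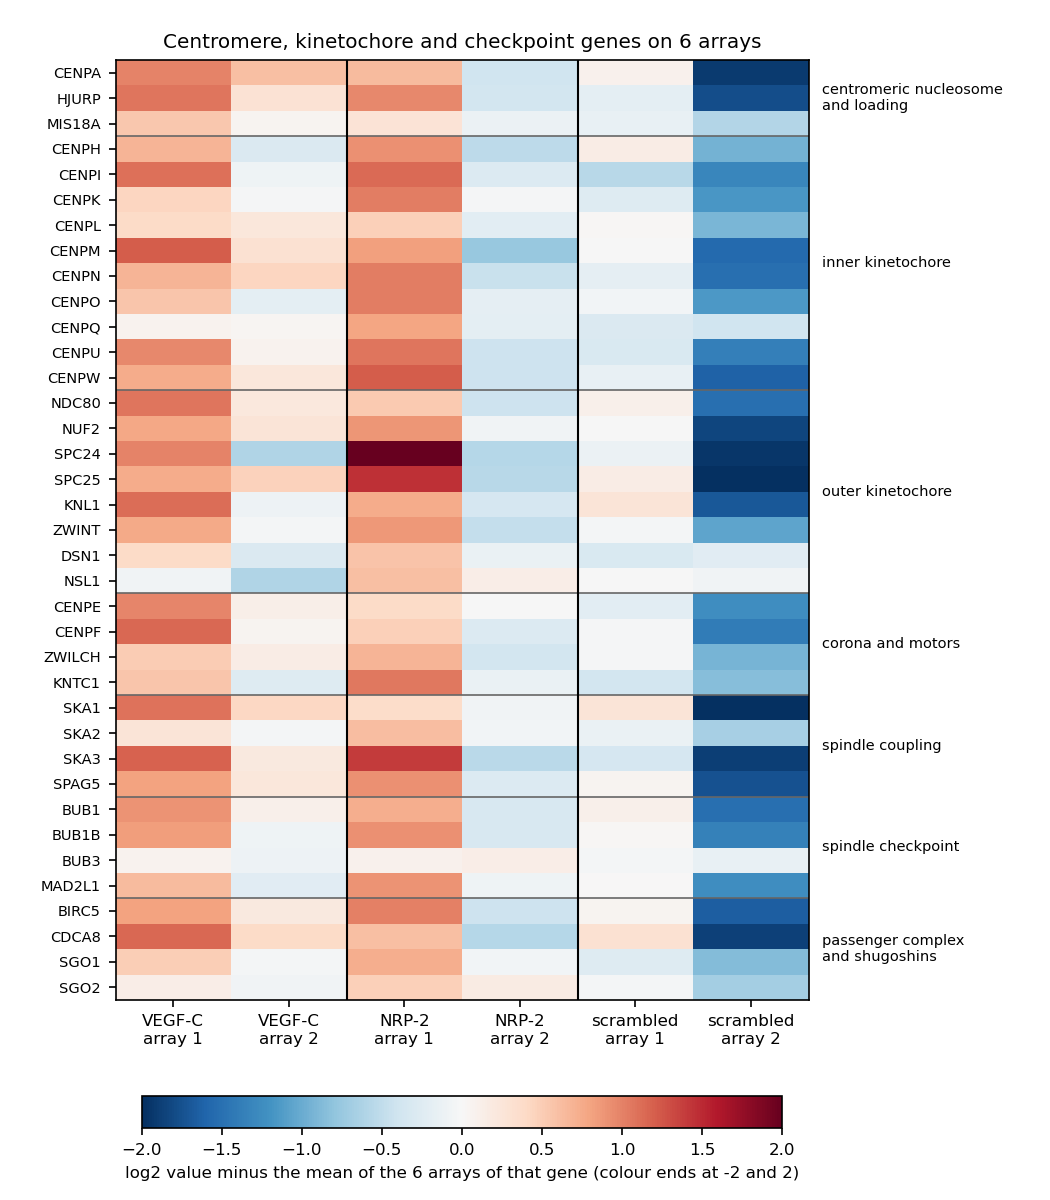
Level of each of the 37 tested genes on the 6 arrays (columns), as the log2 value minus the mean of that gene over the 6 arrays, with genes in rows grouped by role and colours ending at -2 and 2. Red is above and blue below the mean of the gene: scrambled array 2 is the lowest for 35 genes, and array 1 of a targeting siRNA is the highest for 36.

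Setting VEGF-C siRNA against scrambled siRNA asks how these genes respond when the ligand is depleted. The 37 members differed by a median of +1.22 on the log2 scale (-0.30 for NSL1 to +1.80 for SKA3), against a median of -0.004 over all genes tested, and 36 were above 0, as were 49.3% of all genes. A difference of at least 1 was found for 21 members (56.8%) and for 2.06% of all genes. Both VEGF-C arrays lay above both scrambled arrays for 27 members (73%), where 26.8% of all genes did, and below them for 1, NSL1 (26.6% of all genes). Scrambled array 1 lay above VEGF-C array 2 for 9 members (24.3%), as it did for 49.7% of all genes. None passed limma's adjusted p under 0.05 (0 of 37, with 0% of all 11131 genes, and adjusted p from 0.303 to 0.775), and neither did VEGFC, the target. At an unadjusted p under 0.05, 2 members were higher, CENPE and MIS18A (6.95% of all genes), and 0 were lower (7.8%). With the array number as a replicate block, 32 of the 37 were higher at that level (86.5%, where 8.89% of all genes were), and limma's adjusted p of the members was at least 0.124. The labels do not say that a number pairs the arrays, and the blocked counts were added with both fits known. The median was +1.81 without scrambled array 1 and +0.45 without scrambled array 2, and it was +0.68 without VEGF-C array 1.

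Setting NRP-2 siRNA against scrambled siRNA asks the same for the co-receptor. The members differed by a median of +0.92 (+0.21 for BUB3 to +1.87 for SPC24), against +0.01 over all genes, and 37 of 37 were above 0, as were 51.8% of all genes. A difference of at least 1 was found for 17 members (45.9%) and for 2.02% of all genes. The arrays did not overlap for 12 members, all higher with NRP-2 siRNA (32.4%), where 25.3% of all genes were higher in this way, and for 25 of the 37 scrambled array 1 lay above NRP-2 array 2 (50% of all genes). None passed limma's adjusted p under 0.05 (0 of 37, with 0% of all genes, and adjusted p from 0.348 to 0.683), and neither did NRP2, the target. At an unadjusted p under 0.05, 2 were higher, SGO2 and CENPK (6.43% of all genes), with 0 lower (6.85%). With the array number as a replicate block, 31 of the 37 were higher at that level (83.8%, where 9.46% of all genes were), and limma's adjusted p of the members was at least 0.146. This block has the limit given above, that the labels do not pair the arrays by number. Without scrambled array 1, or without NRP-2 array 2, the number that did not overlap was 37 in each case, and 38.5% and 43.3% of all genes were then higher in this way. The median was +1.65 without scrambled array 1, +0.36 without scrambled array 2 and +0.42 without NRP-2 array 1. Both comparisons use the same 2 scrambled arrays.

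**Figure D2:**
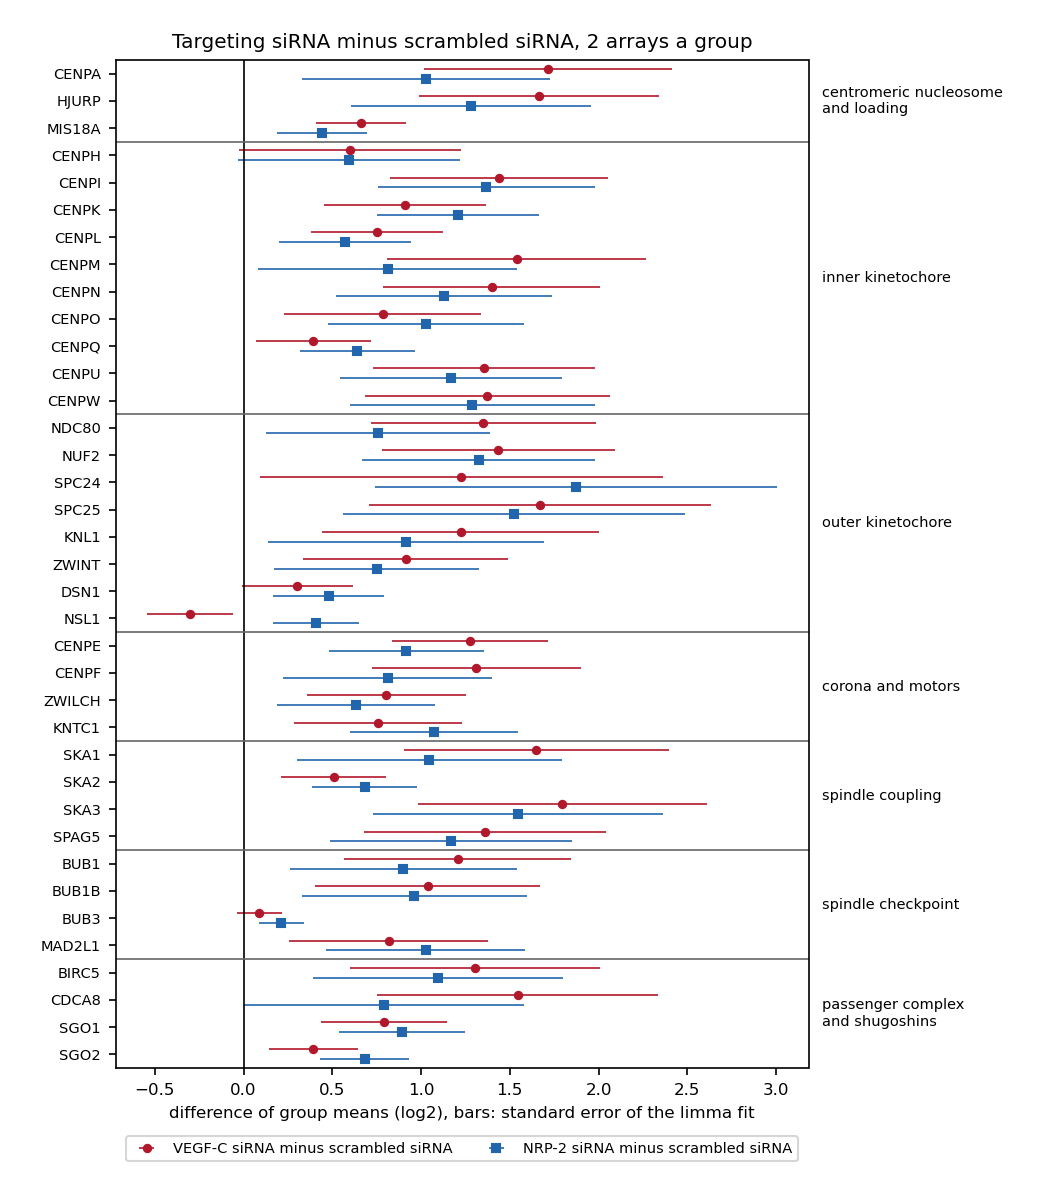
Difference of group means (log2, horizontal axis) for each of the 37 genes, VEGF-C siRNA minus scrambled siRNA in red circles and NRP-2 siRNA minus scrambled siRNA in blue squares, with bars for the standard error of the limma fit (2 arrays a group). All points lie right of 0 except NSL1 with VEGF-C siRNA at -0.30, and no difference passed the adjusted threshold.

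Among the genes that mark the centromere, CENPA encodes the histone variant itself, HJURP its chaperone and MIS18A a subunit of the complex that licenses its loading. CENPA stood at log2 9.12 and 8.73 with VEGF-C siRNA and 8.76 and 7.72 with NRP-2 siRNA, against 8.21 and 6.22 with scrambled siRNA. Both VEGF-C arrays thus lay above the scrambled arrays, while NRP-2 array 2 lay between them. The difference was +1.71 (SE 0.70, 3.28-fold, limma's adjusted p = 0.345) with VEGF-C siRNA and +1.03 (SE 0.70, adjusted p = 0.531) with NRP-2 siRNA. HJURP had the same order of arrays, with 9.39 and 8.62 with VEGF-C siRNA and 9.29 and 7.96 with NRP-2 siRNA, against 8.13 and 6.55 with scrambled siRNA, and differed by +1.67 and +1.28 (SE 0.68 each). MIS18A stood at 11.41 and 10.94 with VEGF-C siRNA and 11.15 and 10.76 with NRP-2 siRNA, against 10.74 and 10.30 with scrambled siRNA. Neither targeting siRNA overlapped the scrambled arrays for MIS18A, and its differences were smaller, +0.66 (SE 0.25, limma's unadjusted p = 0.0441, adjusted p = 0.328) and +0.44 (SE 0.25).

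The inner kinetochore is the constitutive centromere-associated network, and its 10 members here had a median difference of +1.13 with VEGF-C siRNA (+0.39 to +1.54) and +1.08 with NRP-2 siRNA (+0.57 to +1.37), with 10 of 10 above 0 in each. CENPH, CENPI, CENPK and CENPM belong to the same subcomplex. CENPI stood at 8.11 and 6.92 with VEGF-C siRNA and 8.15 and 6.74 with NRP-2 siRNA, against 6.45 and 5.70 with scrambled siRNA. All 4 arrays of the targeting siRNAs lay above both scrambled arrays, with differences of +1.44 and +1.37 (SE 0.61 each). CENPK stood at 8.53 and 8.07 with VEGF-C siRNA and 9.13 and 8.07 with NRP-2 siRNA, against 7.85 and 6.94 with scrambled siRNA, and also showed no overlap. Its difference with NRP-2 siRNA, +1.21 (SE 0.46), had limma's second smallest unadjusted p among the members in that comparison (0.0416, adjusted p = 0.358). CENPM had 9.30 and 8.39 with VEGF-C siRNA and 8.90 and 7.33 with NRP-2 siRNA, against 8.08 and 6.54 with scrambled siRNA, so that NRP-2 array 2 lay below scrambled array 1 (differences of +1.54 and +0.81, SE 0.73 each). CENPH had 9.62 and 8.65 with VEGF-C siRNA and 9.84 and 8.42 with NRP-2 siRNA, against 9.08 and 7.99 with scrambled siRNA. Here array 2 of both targeting siRNAs lay below scrambled array 1, the differences were +0.60 and +0.59 (SE 0.63 each), and the array number took 79.2% of the variation of the gene.

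CENPO, CENPQ and CENPU belong to another subcomplex of the inner kinetochore, in which CENPU recruits the kinase PLK1. CENPQ stood at 8.87 and 8.83 with VEGF-C siRNA and 9.60 and 8.60 with NRP-2 siRNA, against 8.52 and 8.40 with scrambled siRNA. NRP-2 array 1 stood apart for CENPQ, and its group arrays differed by 0.03, 1.00 and 0.12 in the same order of groups. CENPU stood at 12.26 and 11.37 with VEGF-C siRNA and 12.37 and 10.89 with NRP-2 siRNA, against 10.99 and 9.93 with scrambled siRNA. It differed by +1.35 and +1.17 (SE 0.63 each), and CENPO by +0.78 and +1.03 (SE 0.55 each). CENPL and CENPN, which bind each other and contact CENP-A nucleosomes, differed by +0.75 and +1.40 with VEGF-C siRNA and by +0.57 and +1.13 with NRP-2 siRNA. CENPW, a histone-fold protein that binds centromeric DNA with CENP-T, had 10.16 and 9.64 with VEGF-C siRNA and 10.63 and 9.00 with NRP-2 siRNA, against 9.26 and 7.79 with scrambled siRNA, differences of +1.37 and +1.29 (SE 0.69 each).

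The outer kinetochore holds microtubules through the NDC80 complex, whose subunits are NDC80, NUF2, SPC24 and SPC25, and through KNL1, which also carries the checkpoint proteins. The 8 outer members had a median of +1.23 with VEGF-C siRNA and a median of +0.84 with NRP-2 siRNA. All 4 subunits of the NDC80 complex were above 0 in both comparisons, by +1.23 to +1.67 with VEGF-C siRNA and by +0.76 to +1.87 with NRP-2 siRNA. NDC80 stood at 11.59 and 10.73 with VEGF-C siRNA and 11.04 and 10.10 with NRP-2 siRNA, against 10.61 and 9.00 with scrambled siRNA. SPC25, the promoter of which is shown above, stood at 9.43 and 9.15 with VEGF-C siRNA and 10.14 and 8.13 with NRP-2 siRNA, against 8.83 and 6.41 with scrambled siRNA. For both genes the VEGF-C arrays lay above the scrambled arrays and NRP-2 array 2 lay between them. SPC25 differed by +1.67 and +1.52 with an SE of 0.96, since the arrays of the NRP-2 group differed by 2.01 and those of the scrambled group by 2.42.

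SPC24, the partner of SPC25 at the inner end of the complex, varied the most of the 37 (SD 1.45 over the 6 arrays). It stood at 6.81 and 5.22 with VEGF-C siRNA and 8.08 and 5.25 with NRP-2 siRNA, against 5.71 and 3.87 with scrambled siRNA. The groups overlapped in both comparisons, and its value on scrambled array 2 lay under log2 4, where the scale is compressed. Its differences were +1.23 and +1.87 (SE 1.13 each, limma's adjusted p = 0.636 and 0.501). NUF2 had 10.32 and 9.80 with VEGF-C siRNA and 10.42 and 9.47 with NRP-2 siRNA, against 9.54 and 7.70 with scrambled siRNA, and differed by +1.44 and +1.32 (SE 0.65 each).

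KNL1 stood at 10.50 and 9.28 with VEGF-C siRNA and 10.12 and 9.04 with NRP-2 siRNA, against 9.64 and 7.69 with scrambled siRNA, and array 2 of each targeting siRNA lay between the scrambled arrays (+1.22 and +0.92, SE 0.78 each). ZWINT, which binds KNL1 and recruits the corona, differed by +0.91 and +0.75 (SE 0.58 each). Its VEGF-C arrays lay above the scrambled arrays by a narrow margin, with VEGF-C array 2 at 12.623 and scrambled array 1 at 12.622. DSN1 and NSL1 are subunits of the MIS12 complex, which joins the inner to the outer kinetochore. DSN1 stood at 9.11 and 8.44 with VEGF-C siRNA and 9.30 and 8.60 with NRP-2 siRNA, against 8.43 and 8.51 with scrambled siRNA. Its scrambled arrays differed by 0.08, with array 2 the higher, and the differences were +0.30 and +0.48 (SE 0.31 each). NSL1 stood at 11.31 and 10.77 with VEGF-C siRNA and 11.98 and 11.51 with NRP-2 siRNA, against 11.37 and 11.31 with scrambled siRNA. It was the single member below scrambled siRNA with VEGF-C siRNA (-0.30, SE 0.24), and its lower scrambled value exceeded VEGF-C array 1 by less than 0.01. With NRP-2 siRNA NSL1 lay above both scrambled arrays (+0.41, SE 0.24).

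The fibrous corona forms on kinetochores without attached microtubules and carries the motor protein CENPE, the large coiled-coil protein CENPF, and ZWILCH and KNTC1, subunits of the complex that brings in dynein. Its 4 members had a median of +1.04 with VEGF-C siRNA and a median of +0.86 with NRP-2 siRNA, 4 of 4 above 0 in each. CENPE stood at 8.83 and 7.96 with VEGF-C siRNA and 8.23 and 7.84 with NRP-2 siRNA, against 7.63 and 6.60 with scrambled siRNA. Neither targeting siRNA overlapped scrambled siRNA, and the difference with VEGF-C siRNA, +1.27 (SE 0.44, 2.42-fold), had the smallest unadjusted p of the members in that comparison (limma's unadjusted p = 0.0302, adjusted p = 0.303). CENPF stood at 10.70 and 9.61 with VEGF-C siRNA and 10.03 and 9.29 with NRP-2 siRNA, against 9.54 and 8.16 with scrambled siRNA. Both VEGF-C arrays lay above the scrambled arrays for CENPF, and NRP-2 array 2 lay between them (+1.31 and +0.81, SE 0.59 each). ZWILCH differed by +0.80 and +0.63 (SE 0.45 each). KNTC1 had 7.98 and 7.18 with VEGF-C siRNA and 8.49 and 7.30 with NRP-2 siRNA, against 7.06 and 6.58 with scrambled siRNA, with no overlap in either comparison (+0.76 and +1.07, SE 0.47 each).

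SKA1, SKA2 and SKA3 form a complex that follows the ends of shortening microtubules, and SPAG5 (astrin) stabilises attachments once chromosomes have aligned. The median of these 4 was +1.51 with VEGF-C siRNA, and it was +1.11 with NRP-2 siRNA. SKA1 stood at 7.83 and 7.14 with VEGF-C siRNA and 7.10 and 6.65 with NRP-2 siRNA, against 6.98 and 4.69 with scrambled siRNA. Scrambled array 2 stood apart for SKA1, and without it the gene was at -0.10 with NRP-2 siRNA against +1.04 with all arrays. SKA3 had the largest difference of the members with VEGF-C siRNA, +1.80 (SE 0.82, 3.47-fold, limma's adjusted p = 0.382), from 8.12 and 7.13 with VEGF-C siRNA and 8.34 and 6.40 with NRP-2 siRNA, against 6.61 and 5.06 with scrambled siRNA. SKA2 stood at 11.93 and 11.62 with VEGF-C siRNA and 12.29 and 11.62 with NRP-2 siRNA, against 11.53 and 11.00 with scrambled siRNA. Neither targeting siRNA overlapped scrambled siRNA for SKA2, and its differences of +0.51 and +0.68 (SE 0.30 each) were the smallest of the 3 subunits. SPAG5 differed by +1.36 and +1.17 (SE 0.68 each).

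The spindle checkpoint proteins sense missing attachments: BUB1 is a kinase that gathers the others, BUB1B encodes BubR1, which with BUB3 and the product of MAD2L1, MAD2, inhibits the anaphase-promoting complex. BUB1 stood at 10.32 and 9.53 with VEGF-C siRNA and 10.14 and 9.09 with NRP-2 siRNA, against 9.52 and 7.91 with scrambled siRNA. VEGF-C array 2 lay above scrambled array 1 by less than 0.01, and the differences were +1.21 and +0.90 (SE 0.64 each). BUB1B had 10.69 and 9.78 with VEGF-C siRNA and 10.77 and 9.54 with NRP-2 siRNA, against 9.88 and 8.50 with scrambled siRNA (+1.04 and +0.96, SE 0.63 each). MAD2L1 had 12.38 and 11.51 with VEGF-C siRNA and 12.65 and 11.66 with NRP-2 siRNA, against 11.75 and 10.51 with scrambled siRNA (+0.82 and +1.03, SE 0.56 each). For BUB1B and MAD2L1 array 2 of both targeting siRNAs lay between the scrambled arrays. BUB3, which also serves outside mitosis in transcript processing, stood at 13.64 and 13.47 with VEGF-C siRNA and 13.66 and 13.70 with NRP-2 siRNA, against 13.52 and 13.41 with scrambled siRNA. It varied the least of the members (SD 0.12 over the 6 arrays), and differed by +0.09 and +0.21 (SE 0.13 each).

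The chromosomal passenger complex corrects attachments with its kinase AURKB, and BIRC5 (survivin) and CDCA8 (borealin) bring it to the centromere. Shugoshins, encoded by SGO1 and SGO2, protect centromeric cohesion. BIRC5 stood at 12.61 and 12.00 with VEGF-C siRNA and 12.81 and 11.39 with NRP-2 siRNA, against 11.85 and 10.15 with scrambled siRNA. CDCA8 stood at 9.21 and 8.46 with VEGF-C siRNA and 8.67 and 7.50 with NRP-2 siRNA, against 8.38 and 6.20 with scrambled siRNA. For both the VEGF-C arrays lay above the scrambled arrays and NRP-2 array 2 lay between them, and the differences were +1.30 and +1.09 for BIRC5 (SE 0.71 each) and +1.54 and +0.79 for CDCA8 (SE 0.79 each). SGO1 had 6.46 and 5.94 with VEGF-C siRNA and 6.69 and 5.91 with NRP-2 siRNA, against 5.71 and 5.11 with scrambled siRNA, with no overlap in either comparison (+0.79 and +0.89, SE 0.36 each). SGO2 had 10.84 and 10.63 with VEGF-C siRNA and 11.17 and 10.86 with NRP-2 siRNA, against 10.66 and 10.02 with scrambled siRNA. Both NRP-2 arrays lay above the scrambled arrays, and the difference of +0.68 (SE 0.25) had the smallest unadjusted p of the members in that comparison (limma's unadjusted p = 0.0372, adjusted p = 0.348). INCENP stood at 2.87 and 2.15 with VEGF-C siRNA and 2.52 and 2.15 with NRP-2 siRNA, against 2.05 and 2.15 with scrambled siRNA, too near the floor for a comparison.

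The arrays numbered 1 and 2 differed in these genes inside every group. Array 1 minus array 2 had a median over the 37 members of +0.68 with VEGF-C siRNA (0.03 to 1.59, 37 of 37 above 0), +1.05 with NRP-2 siRNA (-0.04 to 2.83, 36 of 37) and +1.24 with scrambled siRNA (-0.08 to 2.42, 36 of 37). Over all genes tested the medians were -0.006, 0 and -0.001 in the same order. Array 1 was the higher in all 3 groups for 35 members (94.6%), with DSN1 and BUB3 as the exceptions, where 15.7% of all genes were, and lower in all 3 for 0 members (16.4% of all genes). The mean difference was above 0 for 37 of 37 members (51% of all genes), had a median of +1.10, against +0.004 over all genes, and was at least 1 for 24 members (64.9%), against 1.22% of all genes. In a limma fit of array number with the siRNA group as a term, 34 members were higher on array 1 at an unadjusted p under 0.05 (91.9%, where 5.52% of all genes were) and 0 were lower (4.67%). None of the 37 passed the adjusted threshold, with a lowest adjusted p of 0.123 (0% of all genes).

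**Figure D3:**
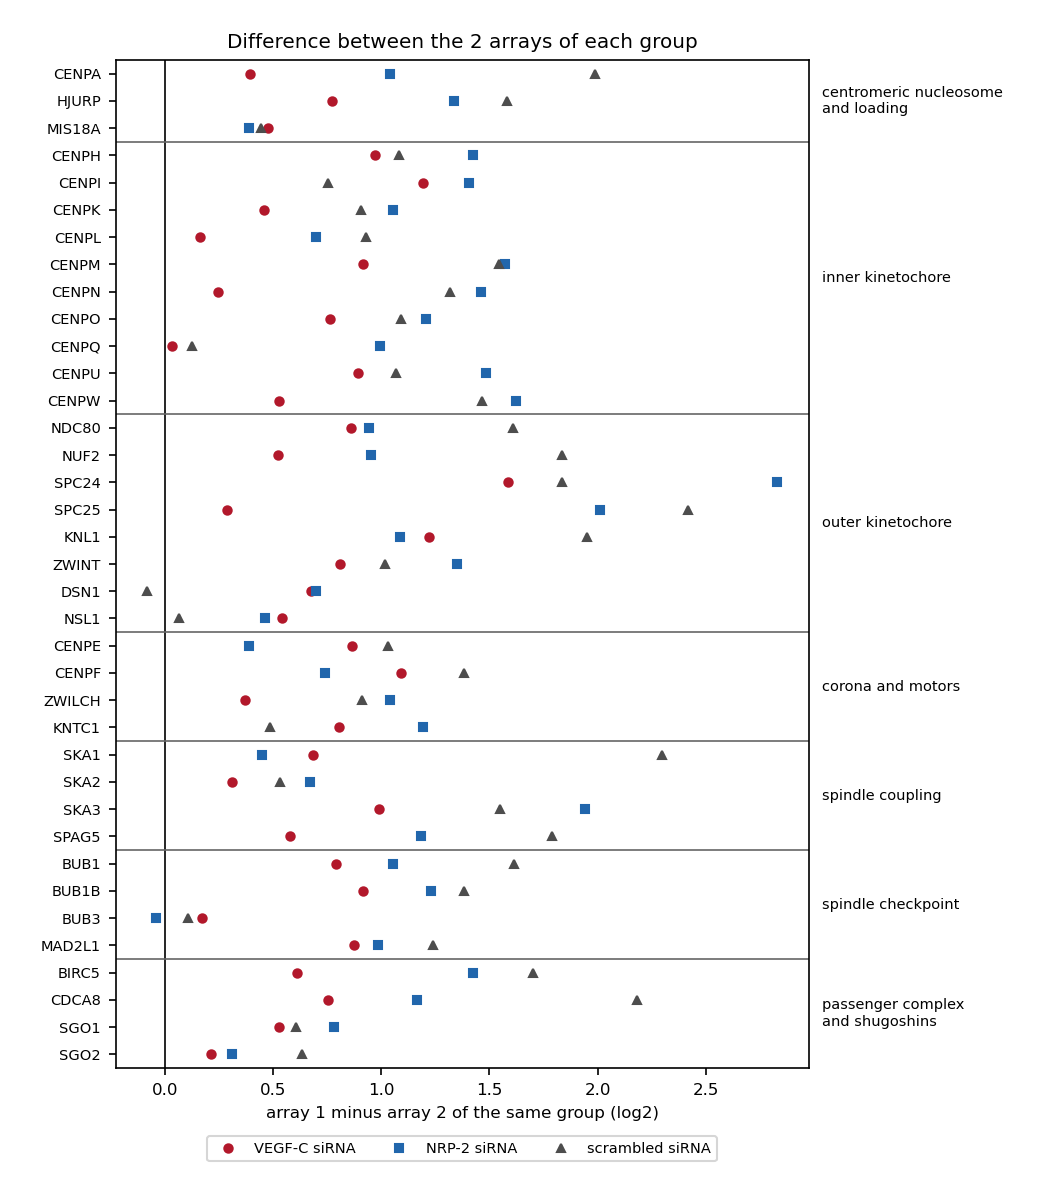
Array 1 minus array 2 of the same group (log2, horizontal axis) for each of the 37 genes, with red circles for VEGF-C siRNA, blue squares for NRP-2 siRNA and grey triangles for scrambled siRNA. All 3 marks lie right of 0 for 35 genes, and DSN1 with scrambled siRNA and BUB3 with NRP-2 siRNA lie just left of it.

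SPC24 had the largest mean difference between the numbers, +2.08 (SE 0.26, limma's unadjusted p = 0.000399, adjusted p = 0.123), and SPC25 (+1.57) and SKA3 (+1.49) came next. The smallest were those of BUB3 (+0.08), NSL1 (+0.35), CENPQ (+0.38), SGO2 (+0.39), DSN1 and MIS18A (+0.43 each). BUB1B (+1.17, SE 0.14), CENPH (+1.16, SE 0.14), MAD2L1 (+1.03, SE 0.12) and CENPM (+1.34, SE 0.17) shared the adjusted p of 0.123 with SPC24. The calls depended on the VEGF-C arrays. Without both of them 26 of the 37 members were called higher on array 1 at an adjusted p under 0.05 (70.3%, where 2.23% of all genes were called higher and 1.13% lower), among them SPC25 (+2.22, SE 0.16), BIRC5 (+1.56, SE 0.15), CENPM, CENPW (+1.54) and SKA3 (+1.75), each with an adjusted p of 0.0112. SGO1, SKA2, KNTC1, CENPE, SKA1, SGO2, MIS18A, CENPQ, NSL1, DSN1 and BUB3 were not called then. Without the NRP-2 arrays, or without the scrambled arrays, 0 genes were called.

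The variation of each gene over the 6 arrays was split into the part between siRNA groups, the part between array numbers and the rest. For the 37 members the medians of these shares were 48.4%, 44.1% and 4.51%, against 56.2%, 11% and 21.2% over all genes tested. The median SD over the 6 arrays was 0.85 for the members and 0.23 for all genes. The number took a larger share than the group for 15 of the 37 members and for 2089 of all 11131 genes. Among the members CENPH (79.2%), KNL1 and ZWINT (62.2% each) and SPC24 (61.7%) were at the top. The group took its largest shares in BUB3 (68.4%) and NSL1 (66.5%), and the rest was largest in CENPQ (30.7%) and DSN1 (27.9%). The group share is taken over 3 groups and the number share over 2 numbers, so the sizes of the 2 shares are not directly comparable. These shares describe 6 arrays and were not tested.

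**Figure D4:**
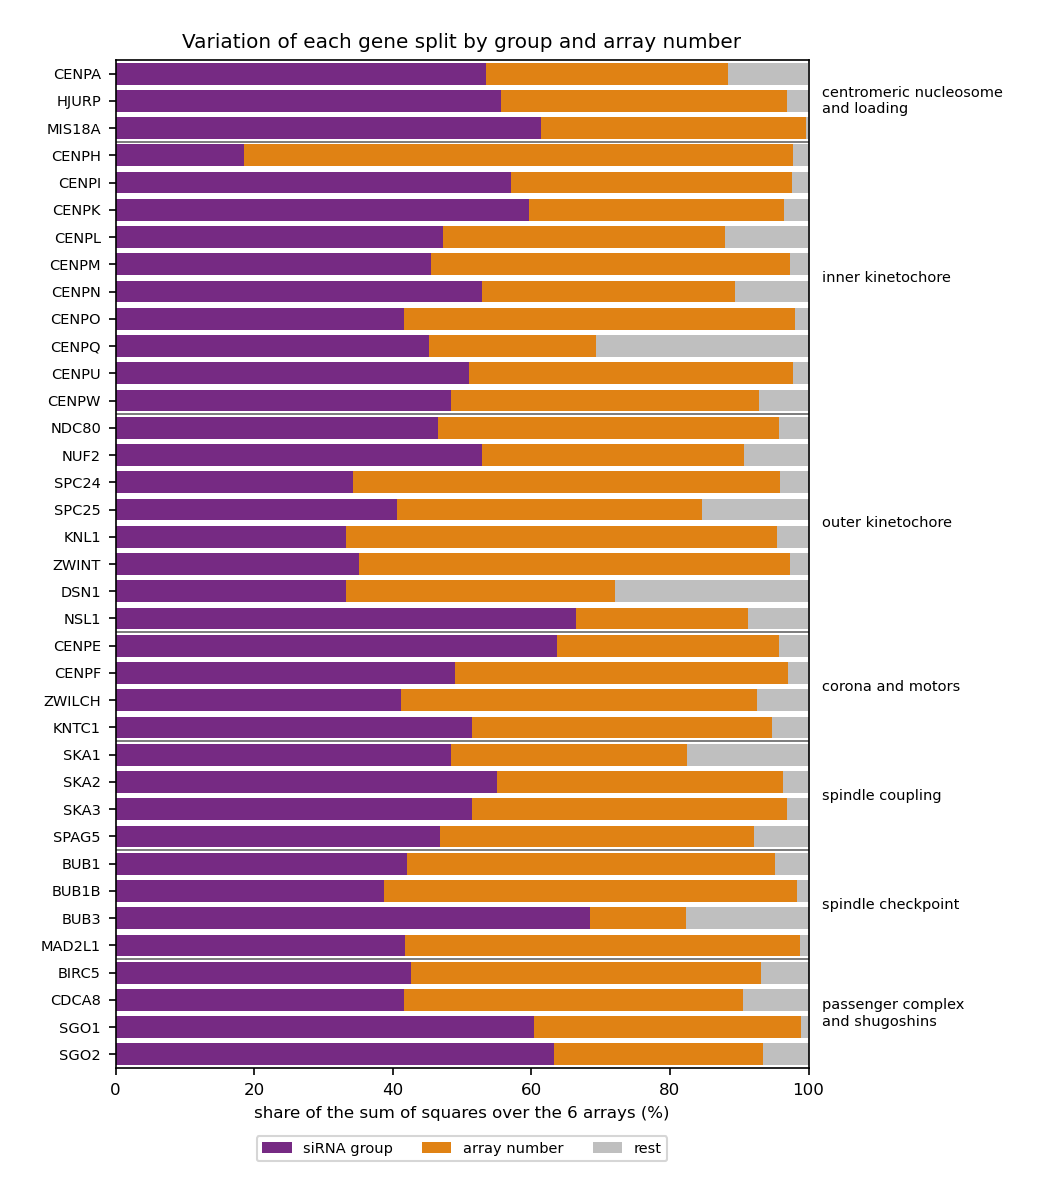
Share of the sum of squares over the 6 arrays (%, horizontal axis) that lay between siRNA groups (purple), between array numbers (orange) and in the rest (grey), for each of the 37 genes. The orange part is at least as wide as 61.7% in CENPH, KNL1, ZWINT and SPC24, and the grey part is widest in CENPQ at 30.7%.

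NRP-2 siRNA was compared with VEGF-C siRNA to ask whether the 2 pools left these genes at different levels. The members differed by a median of -0.17 (-0.75 for CDCA8 to +0.71 for NSL1), against +0.02 over all genes, and 12 of 37 were above 0 (52.7% of all genes). None passed limma's adjusted p under 0.05 (0 of 37, with 0% of all genes, and adjusted p from 0.227 to 0.998), and none differed by at least 1 (1.85% of all genes). For 17 members the NRP-2 arrays enclosed the VEGF-C arrays, with array 1 above and array 2 below them (21.2% of all genes). The arrays did not overlap for NSL1, SGO2 and BUB3, which were higher with NRP-2 siRNA (24.1% of all genes), and for SKA1, which was lower (22.4%). NSL1 differed by +0.71 (SE 0.24, limma's unadjusted p = 0.0296, adjusted p = 0.227), the single member at an unadjusted p under 0.05 in that direction (9.54% of all genes), with 0 in the other (8.66%). With the replicate block 1 was higher (10.9% of all genes) and 3 were lower (9.46%) at that level, shares at or under those of all genes. SGO2 differed by +0.29 (SE 0.25), BUB3 by +0.12 (SE 0.13), SKA1 by -0.60 (SE 0.75) and CDCA8 by -0.75 (SE 0.79). The median turned to +0.21 without VEGF-C array 1 and to +0.49 without NRP-2 array 2, and was -0.46 without VEGF-C array 2 and -0.77 without NRP-2 array 1.

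Several members were also measured by other probe sets, and each of these was checked for the direction of its difference. Of the 77 probe sets, 60 passed log2 4 and 17 did not, the lowest that passed at 4.18 and the highest that did not at 3.73. The 23 further probe sets that passed belong to 15 genes, and 22 of them were higher with VEGF-C siRNA than with scrambled siRNA, 23 with NRP-2 siRNA and 23 on array 1 than on array 2. Their differences lay within 0.57 of that of the probe set used with VEGF-C siRNA and within 0.41 with NRP-2 siRNA, with median gaps of 0.13 and 0.11.

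Other genes of the same pathway were taken from lists of related complexes. In none of these lists did a gene pass limma's adjusted p under 0.05 in any comparison (0 genes). Of 29 further centromere, kinetochore and checkpoint genes, 23 were tested, with medians of +0.54 (VEGF-C siRNA), +0.30 (NRP-2 siRNA) and +0.28 for array 1 minus array 2. Above 0 were 19 with VEGF-C siRNA, 16 with NRP-2 siRNA and 20 between the numbers (49.3%, 51.8% and 51% of all genes). At limma's unadjusted p under 0.05 there were 5 higher and 0 lower with VEGF-C siRNA (6.95% and 7.8% of all genes). With NRP-2 siRNA 2 were higher and 2 lower (6.43% and 6.85%, a share near that of the list). On array 1, 11 were higher and 0 lower (5.52% and 4.67%). AURKB, the passenger complex kinase, stood at 9.34 and 8.80 with VEGF-C siRNA and 9.09 and 7.72 with NRP-2 siRNA, against 8.07 and 6.07 with scrambled siRNA. TTK, the kinase that starts the checkpoint, stood at 10.55 and 9.98 with VEGF-C siRNA and 10.48 and 9.26 with NRP-2 siRNA, against 9.59 and 8.04 with scrambled siRNA. For both kinases scrambled array 2 was the lowest and array 1 lay above array 2 in each group, as for most members, and VEGF-C array 1 was the highest, as for 11 of the 37. MIS12, the partner of DSN1 and NSL1, stood at 11.42 and 11.66 with VEGF-C siRNA and 11.28 and 11.19 with NRP-2 siRNA, against 11.03 and 10.95 with scrambled siRNA. For MIS12 array 1 lay below array 2 with VEGF-C siRNA and above it in the other groups, so that the mean difference was -0.02. It differed by +0.55 (SE 0.14, limma's unadjusted p = 0.00867, adjusted p = 0.241) with VEGF-C siRNA. SPDL1, which recruits dynein to kinetochores, differed by +1.12 (SE 0.28, adjusted p = 0.241) with VEGF-C siRNA and by +0.69 with NRP-2 siRNA. PLK1 was not among the genes tested.

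The 14 G2 and mitosis markers, such as the proliferation antigen gene MKI67, lay as the members did. Their medians were +1.29 with VEGF-C siRNA, +0.99 with NRP-2 siRNA and +1.24 between the array numbers. All 14 were above 0 in each (49.3%, 51.8% and 51% of all genes). At limma's unadjusted p under 0.05, 14 were higher on array 1 (5.52% of all genes). Against scrambled siRNA 0 of the 14 reached that level for either pool. Of all genes, 6.95% (VEGF-C) and 6.43% (NRP-2) were higher there. MKI67 stood at 9.94 and 8.79 with VEGF-C siRNA and 9.83 and 8.42 with NRP-2 siRNA, against 8.38 and 6.33 with scrambled siRNA. FOXM1, the activator of these promoters, stood at 10.04 and 9.33 with VEGF-C siRNA and 9.59 and 8.37 with NRP-2 siRNA, against 8.87 and 7.10 with scrambled siRNA. The 15 S phase genes had medians of +0.41 with VEGF-C siRNA, +0.98 with NRP-2 siRNA and +0.93 between the numbers. For NRP-2 against VEGF-C siRNA their median was +0.69 (-0.58 to +1.70), where the 37 members had -0.17. In that comparison 13 of 15 were above 0 (52.7% of all genes). Only 1 of them was higher at limma's unadjusted p under 0.05 (9.54% of all genes), and the lowest adjusted p was 0.26. CDC6, which loads the replicative helicase, had the smallest unadjusted p of the list against scrambled siRNA and the lowest NRP-2 minus VEGF-C difference. It stood at 9.33 and 8.46 with VEGF-C siRNA and 8.88 and 7.74 with NRP-2 siRNA, against 7.50 and 6.88 with scrambled siRNA, so that it lay +1.70 above scrambled siRNA with VEGF-C siRNA (SE 0.49, limma's adjusted p = 0.255), and NRP-2 minus VEGF-C siRNA was -0.58. PCNA, the sliding clamp of replication, stood at 13.16 and 12.66 with VEGF-C siRNA and 14.14 and 13.19 with NRP-2 siRNA, against 12.71 and 12.72 with scrambled siRNA, with NRP-2 array 1 the highest and the scrambled arrays close to each other.

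The last 3 lists had medians near 0, with some genes in each well above it. The 17 tested genes of the anaphase-promoting complex and its partners had a median of +0.10 with VEGF-C siRNA (-0.18 to +1.59) and a median of +0.22 with NRP-2 siRNA (-0.21 to +1.08), and UBE2C, its mitotic ubiquitin-conjugating enzyme, stood at +1.59 (SE 0.58, limma's adjusted p = 0.319) and +1.02 (SE 0.58). The 16 cohesin and separase genes had medians of +0.03 (-0.33 to +1.72) and +0.01 (-0.30 to +1.33), with CDCA5 (sororin) at +1.72 and +1.33 (SE 0.78 each). HDAC8 had the smallest unadjusted p of that list with VEGF-C siRNA and lay lower, at -0.33 (SE 0.12, limma's unadjusted p = 0.0354, adjusted p = 0.316). The 17 tested genes of cell cycle inhibitors and the DREAM complex had medians of +0.02 (-0.57 to +0.83) and +0.06 (-0.39 to +0.56). Among them E2F5, a repressive E2F factor, stood at +0.62 (SE 0.15, limma's unadjusted p = 0.00654, adjusted p = 0.234) with VEGF-C siRNA and at +0.27 with NRP-2 siRNA, and CCNG2, a cyclin of resting cells, at -0.57 and -0.39 (SE 0.20 each). Between the array numbers the medians of these 3 lists were +0.11, +0.12 and +0.03, against +1.10 for the members. At limma's unadjusted p under 0.05, 5 of 17, 4 of 16 and 2 of 17 were higher on array 1, in the same order of lists (5.52% of all genes). In each list 0 were lower (4.67% of all genes).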

How the data were processed

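What the authors deposited is 1 log2 value per probe set and array. The submitters' processing notes name Partek and GCRMA, with no version or setting. GCRMA takes background from probe sequence, puts the arrays on a common scale and combines the probes of a set. The log2 values ran from 0.82 to 16.32, array medians lay within 0.07, and low values are compressed, so that differences of dim genes are understated. Detection calls were not used here, and precision is limited by having 6 arrays. Per the labels' protocols, 6 ug of total RNA was labelled.

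Names come from the platform annotation of 2016: of 54675 probe sets, 62 were controls, 41091 named 1 gene, 1801 several and 11721 none, and 0 symbols needed updating. Those naming 1 gene whose mean reached log2 4 numbered 19946, and the brightest of each gene stood for it, giving 11131 genes. Groups and array numbers come from the sample titles.

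limma 3.58.1 (R 4.3.3, lmFit and eBayes, two-sided tests) was fitted to all 6 arrays by group, without a block, leaving 3 residual and 2.46 prior degrees of freedom. A second fit with group and array number as terms tested the number (2 residual and 3.18 prior). Calls needed a Benjamini-Hochberg adjusted p under 0.05 across the 11131 genes. SE is that of the fit, SD that of the stated arrays. Genes outside the list were named as the siRNA targets, as TTK, AURKB and PLK1, or as up to 3 genes of a related list with the smallest unadjusted p against scrambled siRNA. The procedure was tested on simulated data with independent noise and changes larger than those of any member. That run does not show whether changes of the members' size would be called. The members, lists and naming rule were chosen with earlier results of these data known. Alternatives were other filters, probe set rules and scalings, left-out arrays and a replicate block. The labels do not say that a number pairs the arrays. Over all genes, array 1 minus array 2 correlated at 0.119 between VEGF-C and NRP-2 siRNA, 0.112 between VEGF-C and scrambled siRNA and 0.579 between NRP-2 and scrambled siRNA. Without the members these were 0.106, 0.093 and 0.57, so the VEGF-C arrays gave little ground for pairing by number. The blocked counts are given beside the others, a choice made with both fits known. Promoter windows are RefSeq's, and protein sequences were not used here.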

Additional observations from a re-analysis of the deposited data

Results flagged for a closer look

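NSL1, a subunit of the MIS12 complex, lay on opposite sides of scrambled siRNA with the 2 targeting siRNAs. On the probe set used, both VEGF-C arrays lay below and both NRP-2 arrays above the scrambled arrays. The margin was narrow, with VEGF-C array 1 at 11.305 and scrambled array 2 at 11.306. On the other NSL1 probe set past the filter VEGF-C array 1 (7.006) lay above scrambled array 2 (7.003), so that these groups overlapped. Both NRP-2 arrays lay above the scrambled arrays there too. With the probe set used, NRP-2 minus VEGF-C siRNA was 0.709 (limma's unadjusted p = 0.0296, adjusted p = 0.227 over all genes). The difference thus did not pass the threshold.

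A probe set that the annotation assigns to both SLC35F6 and CENPA, and which the comparisons above did not use, stood at log2 11.96 and 11.51 with VEGF-C siRNA and 11.66 and 10.51 with NRP-2 siRNA, against 11.10 and 9.02 with scrambled siRNA. VEGF-C minus scrambled siRNA was 1.673 and NRP-2 minus scrambled siRNA was 1.024, beside +1.71 and +1.03 for the probe set that names CENPA alone. Which of the 2 genes it measured was not tested.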

How the results depend on the processing

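Alternatives left the counts of genes called at 0 except that, with no filter on low values, 1 gene was called with VEGF-C against scrambled siRNA and 1 with NRP-2 against VEGF-C siRNA, neither a member, and without both VEGF-C arrays 374 genes differed between the array numbers (0 to 374 when a group was left out). The number of members whose NRP-2 arrays lay above both scrambled arrays, 12, was 12 to 37 when 1 array was left out. Some members changed sign when 1 array was left out. With NRP-2 against scrambled siRNA CDCA8 ranged from -0.299 to 1.883, KNL1 from -0.06 to 1.893, NDC80 from -0.045 to 1.565 and SKA1 from -0.104 to 2.194, each lowest without scrambled array 2 and highest without scrambled array 1, and CENPH from -0.12 (without NRP-2 array 1) to 1.305. With VEGF-C against scrambled siRNA DSN1 ranged from -0.032 (without VEGF-C array 1) to 0.64. The cause was not tested. The other 546 of 551 single-gene values for NRP-2 and 550 of 551 for VEGF-C against scrambled siRNA kept their direction and their side of the threshold, over 37 members and 15 alternatives. Several alternatives cannot change a difference, such as the replicate block or leaving out an array of the group not compared. These counts therefore do not measure how stable the directions are. Every change of sign came from leaving out an array of a compared group. With the replicate block, 0 genes were called in each of the 3 group comparisons, so that it changed no call. Its counts of members at an unadjusted p under 0.05 stand beside the results above.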
